A study of Mus musculus with 27 samples.

Results

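The 48 genes described here are a selection of genes of the lysosome and of the TFEB network that controls it. They were taken by symbol from the 38352 genes of the deposited tables, and each symbol matched 1 gene. By role they are 12 glycosidases, 4 sulfatases, 6 lipid hydrolases or lipid handling proteins, 8 proteases with progranulin counted among them, 8 membrane proteins, 3 subunits of the proton pump (V-ATPase) and 7 genes of TFEB control. Messenger RNA was sequenced from E14Tg2a cells after poly(A) selection. E14Tg2a is a wild-type mouse embryonic stem cell line, kept here on gelatin in medium with serum, leukemia inhibitory factor and the 2i inhibitor pair. The question was whether and how a short exposure to hydrogen peroxide, an oxidant that crosses membranes, changes gene expression over the following day. Treated cells received 500 µM peroxide for 30 min according to the treatment protocol, and the series text gives the same figure in mM. The peroxide medium was then exchanged for spent medium of untreated cells. The treated groups were collected at 0.5 h, directly at the end of the exposure, and at 2, 4, 6, 8, 10 and 24 h, and the untreated groups at 0 h and 24 h. Each of the 9 groups holds 3 biological replicates from 3 independent time courses, 27 libraries in all. The treated groups of 0.5 to 10 h were set against the untreated 0 h group, and the treated 24 h group against its time-matched untreated one. No group had the medium exchange without peroxide, so the effects of peroxide and of spent medium cannot be told apart.

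Lysosomes are acidic organelles in which hydrolases break down proteins, glycans, lipids and nucleic acids delivered by endocytosis and autophagy. The V-ATPase acidifies the lumen, and membrane proteins line it, export the products or release calcium. The transcription factors TFEB and TFE3 bind a short motif, CACGTG within a longer palindrome, in the promoters of many lysosomal genes, and they are held in the cytosol when the kinase complex mTORC1 phosphorylates them at the lysosome. Folliculin (Flcn) with Fnip1 or Fnip2 acts on the small GTPases RagC (Rragc) and RagD (Rragd), which present TFEB and TFE3 to mTORC1.

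The promoters of the genes were searched for this motif, for description only. The genes were chosen as lysosome and TFEB network genes, so a high share can follow from that choice alone. RefSeq promoters on GRCm38.p6, 250 bases before to 50 bases after the gene start, were at hand for 43 of the 48 genes, as 50 promoters. Atp6v1h, Npc1, Galns, Asah1 and Ctsb had no entry. CACGTG, which reads the same on both strands, was present in 18 of the 50 promoters (36.0%), in 7.15% of all 32851 promoters and in 10.5% of the 11793 promoters of genes that were tested. The longer TCACGTGA, which holds CACGTG, was present in 8 of the 50 (16.0%), against 0.974% of all promoters and 1.95% of those of tested genes. The 18 promoters held 26 copies of CACGTG, of which 21 began within the 150 bases before the gene start. Lamp1 had 4 copies, and Ctsa, Cln3, Ctsd, Mcoln1 and Gla had 2 each. The 250 bases before the start are shown for genes of different roles with the motif, 5′ to 3′ on the coding strand with CACGTG in capitals. Ctsd (chr7:142387828-142388077, minus strand) encodes an aspartic protease, Lamp1 (chr8:13158911-13159160, plus strand) the main membrane glycoprotein, Mcoln1 (chr8:3500269-3500518, plus strand) a calcium channel, Dpp7 (chr2:25356333-25356582, minus strand) a dipeptidyl peptidase and Cln3 (chr7:126583237-126583486, minus strand) a membrane protein. Another Cln3 promoter, directly before the annotated gene (chr7:126585818-126586067, minus strand), held 0 copies of CACGTG and is not shown. Motif positions are counted from the RefSeq start. The windows shown for Ctsd, Mcoln1 and Dpp7 reach into the gene positions given below, and that of Cln3 lies within the annotated gene.
Ctsd: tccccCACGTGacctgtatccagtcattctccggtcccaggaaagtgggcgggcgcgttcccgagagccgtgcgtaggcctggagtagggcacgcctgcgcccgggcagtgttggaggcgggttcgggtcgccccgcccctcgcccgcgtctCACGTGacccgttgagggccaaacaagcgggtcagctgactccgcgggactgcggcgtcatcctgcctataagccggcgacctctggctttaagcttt
Lamp1: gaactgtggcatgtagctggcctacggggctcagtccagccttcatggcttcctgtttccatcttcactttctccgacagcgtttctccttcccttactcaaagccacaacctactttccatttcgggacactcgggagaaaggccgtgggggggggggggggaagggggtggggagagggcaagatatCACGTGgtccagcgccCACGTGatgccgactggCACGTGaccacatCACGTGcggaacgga
Mcoln1: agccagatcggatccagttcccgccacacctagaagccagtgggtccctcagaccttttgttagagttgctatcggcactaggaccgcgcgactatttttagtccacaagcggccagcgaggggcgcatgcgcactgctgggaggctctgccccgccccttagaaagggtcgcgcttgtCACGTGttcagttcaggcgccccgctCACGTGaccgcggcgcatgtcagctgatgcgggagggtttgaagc
Dpp7: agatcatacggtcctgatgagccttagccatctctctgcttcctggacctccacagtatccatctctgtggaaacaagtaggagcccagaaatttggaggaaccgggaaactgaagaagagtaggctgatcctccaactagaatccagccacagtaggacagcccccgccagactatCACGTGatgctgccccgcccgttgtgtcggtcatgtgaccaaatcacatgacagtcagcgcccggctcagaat
Cln3: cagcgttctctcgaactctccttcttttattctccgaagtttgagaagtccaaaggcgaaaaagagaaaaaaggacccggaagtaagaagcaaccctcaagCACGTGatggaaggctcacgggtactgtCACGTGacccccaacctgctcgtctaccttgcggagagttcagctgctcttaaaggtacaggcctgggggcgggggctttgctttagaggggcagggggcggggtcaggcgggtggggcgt
The copies lay close together in Lamp1, where they began 61, 45, 28 and 15 bases before the start, and in Mcoln1, where they began 71 and 45 bases before it. The median log2 change of the 17 tested genes with CACGTG in a promoter was 0.58 at 4 h, 0.74 at 6 h, 0.74 at 8 h and 0.59 at 10 h, and that of the 24 tested genes whose matched promoters lacked it was 0.46, 0.61, 0.75 and 0.61 at the same times. The difference between these sets was not tested. Flcn, Hyal1 and Man2b1, whose changes are among the largest below, have no CACGTG in these windows.

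Levels are given as FPKM, that is, fragments scaled to transcript length and to library size. Changes are differences of mean log2(FPKM + 1), which understate changes of low genes. A gene was called changed where limma, fitted to all 27 libraries, gave a Benjamini-Hochberg adjusted p below 0.05 over 13614 tested genes. The deposited values hold no read counts, so absolute depth is unknown. Relative depth, read from the steps of low values, was between 0.982 and 1.10 of untreated 0 h replicate 1, and 11516 to 12607 genes reached 1 FPKM. All 9 pluripotency markers averaged 1 FPKM or more in every group, but their sums differed between groups. They summed to 3029 to 3231 FPKM at 4 h, 2599 to 2837 at 6 h, 2762 to 3224 at 8 h and 2372 to 3018 at 10 h, against 3422 to 4442 in untreated 0 h libraries. Nanog averaged 108 FPKM at 4 h and 89.8 at 6 h against 344 in untreated 0 h cells, and Sox2 44.6 and 72.9 against 132. Pou5f1 moved less, with 705 FPKM at 4 h and 581 at 6 h against 713 in untreated 0 h cells. The other pluripotency markers are not given singly. The part of the pluripotency markers in the changes of the 48 genes was not tested. In each of 4 groups 1 library stood apart from its fellows: untreated 0 h replicate 3, treated 2 h replicate 1, treated 8 h replicate 3 and treated 10 h replicate 3. Their levels leaned towards GC-rich genes, by 0.192 to 0.357 log2 units per 10 points of GC content relative to the mean of untreated 0 h replicates 1 and 2, and the 48 genes have a median GC content of 52.2% against 49.8% over all tested genes. Other libraries ranged from -0.0267 to 0.205 on that scale, treated 4 h replicate 1 being the highest. Markers of other cell types were detected in some libraries. The 23 hepatocyte markers summed to 60.3 to 86.1 FPKM at 0.5 h, to 59.2 in treated 6 h replicate 3, to 78.3 and 68.3 in treated 8 h replicates 1 and 2, and to 55.3 to 77.6 in untreated 24 h, against at most 9.81 in all other libraries. The 48 genes summed to 1509 FPKM in treated 8 h replicate 3, where these markers summed to 2.38, and to 1460 and 1462 in the other treated 8 h libraries. As a share of all summed FPKM they were lower in replicate 3, at 0.435%, against 0.463% in each of replicates 1 and 2. Whether the source of the hepatocyte markers had a part in the changes of the 48 genes was not tested. Sums of 11 macrophage markers were 0.560 to 2.32 FPKM at 4 h, 2.69 to 4.25 at 6 h and 3.06 to 3.22 at 8 h. At 10 h they were 1.19 to 3.52 FPKM, at 0.5 h 2.48 to 2.62, and in untreated 0 h libraries 0.164 to 0.460. The part of macrophage markers in the changes of the 48 genes was not tested. Sums of 5 astrocyte markers were 7.15 to 8.92 FPKM at 8 h and 1.42 to 2.10 in untreated 0 h libraries. They were 5.999 to 6.69 FPKM at 0.5 h and 1.31 to 1.72 at 4 h, and the part of astrocyte markers in the changes was not tested. Sums of 8 fibroblast markers lay between 0.991 and 2.34 FPKM in all libraries, and were 1.19 to 1.59 at 8 h and 1.25 to 1.56 in untreated 0 h libraries.

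Lysosomal mRNAs rose between 2 h and 4 h after the start of the exposure and stayed high until 10 h. Most had fallen by 24 h, when most were not called. The summed level of the 48 genes was 876, 859 and 864 FPKM at 0.5 h, 888, 884 and 872 at 2 h, 1283, 1259 and 1278 at 4 h, 1506, 1478 and 1491 at 6 h, 1460, 1462 and 1509 at 8 h and 1380, 1263 and 1326 at 10 h, against 865, 876 and 817 in untreated cells at 0 h. At 24 h it was 999, 992 and 985 FPKM in treated cells and 941, 912 and 916 in untreated cells. Every library from 4 h to 10 h therefore lay above every untreated library, and those at 0.5 h and 2 h overlapped with the untreated ones. The treated 24 h libraries also lay above every untreated library, the lowest at 985 FPKM against at most 941. In bulk RNA, a change in the mix of cells and a change in RNA per cell cannot be told apart.

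No gene of the 48 was called at 0.5 h, when 3 had an unadjusted p below 0.05 and 0.0808% of all tested genes were called (0.0147% higher, 0.0661% lower). Dpp7 was the only one called at 2 h (1.07% of all genes called). At 4 h 30 were higher and 0 lower, when 14.2% of all tested genes were higher and 12.1% lower. At 6 h 34 were higher and 2 lower (22.3% and 20.0% of all genes, 42.3% in all). At 8 h 40 were higher and 1 lower (29.2% and 11.6%), and at 10 h 34 and 1 (22.2% and 9.43%, 31.7% in all). At 24 h 8 were higher and 1 lower, against 8.63% and 4.28% of all genes. The median log2 change of the 48 genes was 0.06 at 0.5 h, 0.04 at 2 h, 0.46 at 4 h, 0.70 at 6 h, 0.69 at 8 h, 0.56 at 10 h and 0.08 at 24 h, and that of all tested genes was 0.05, 0.02, 0.01, 0.00, 0.11, 0.11 and 0.07 at the same times. Median-of-ratios scaling moved the all-gene median at 8 h to -0.02 and the shares of all genes called higher and lower to 20.5% and 19.1%, with 37 of the 48 genes higher and 2 lower. At 10 h it moved the all-gene median to -0.01 and the shares to 15.1% and 15.4%, with 33 genes higher and 1 lower. Fits of only the groups compared, which estimate the spread from 6 libraries, called 19 of the 48 genes at 4 h, 27 at 8 h and 13 at 10 h, and 7.79%, 11.3% and 3.56% of all genes.

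**Figure D1:**
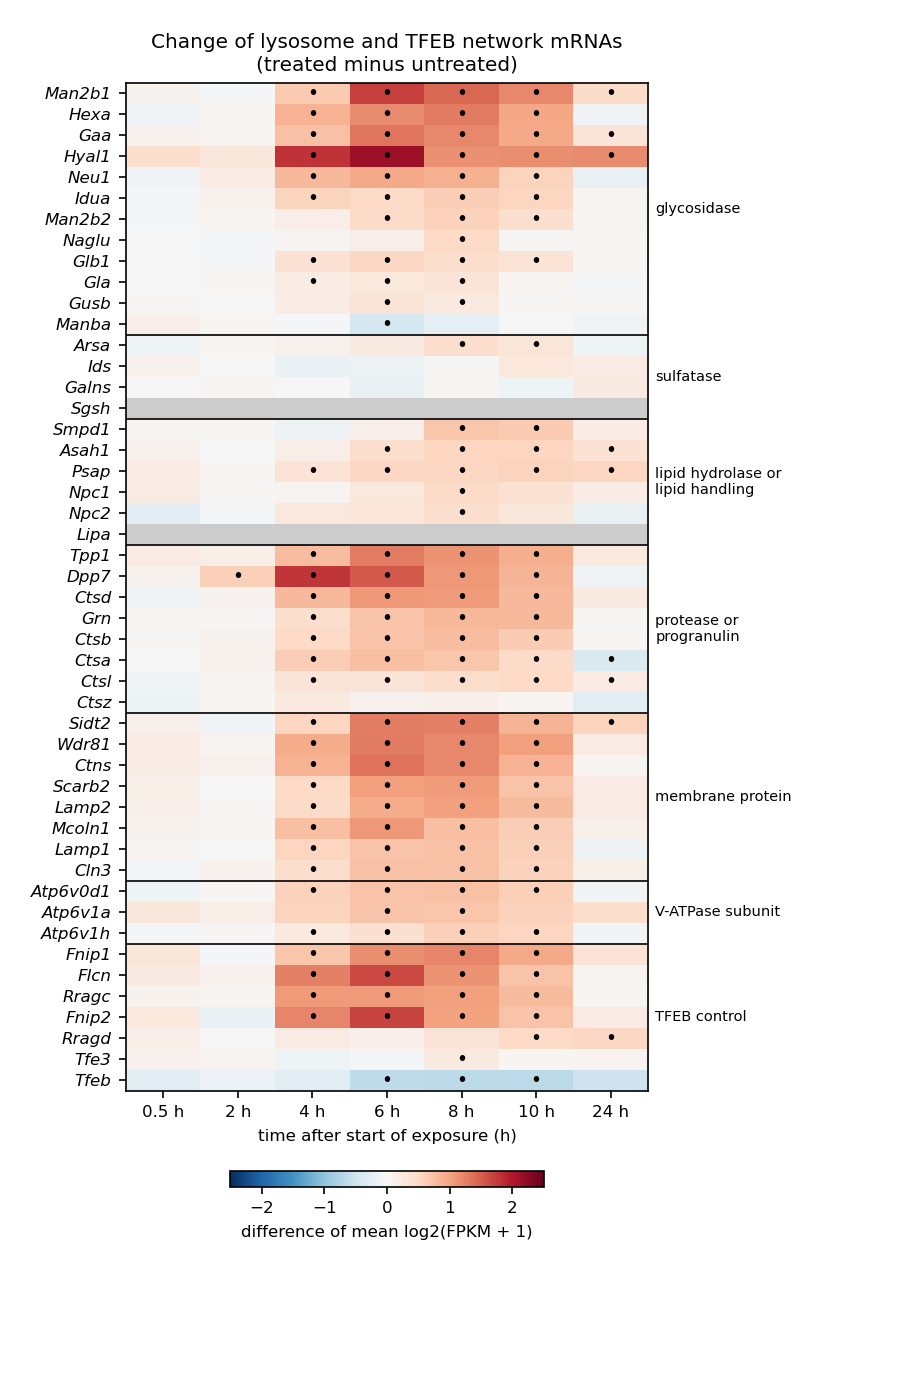
Log2 change of each of the 48 genes (rows, grouped by role) at each time after the start of exposure (columns), as treated minus untreated mean log2(FPKM + 1), with dots where the limma adjusted p is below 0.05 and grey where a gene was not tested. Red fills most rows from 4 h to 10 h, all 8 membrane proteins included, while Tfeb is blue and most rows are pale at 24 h.

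**Figure D2:**
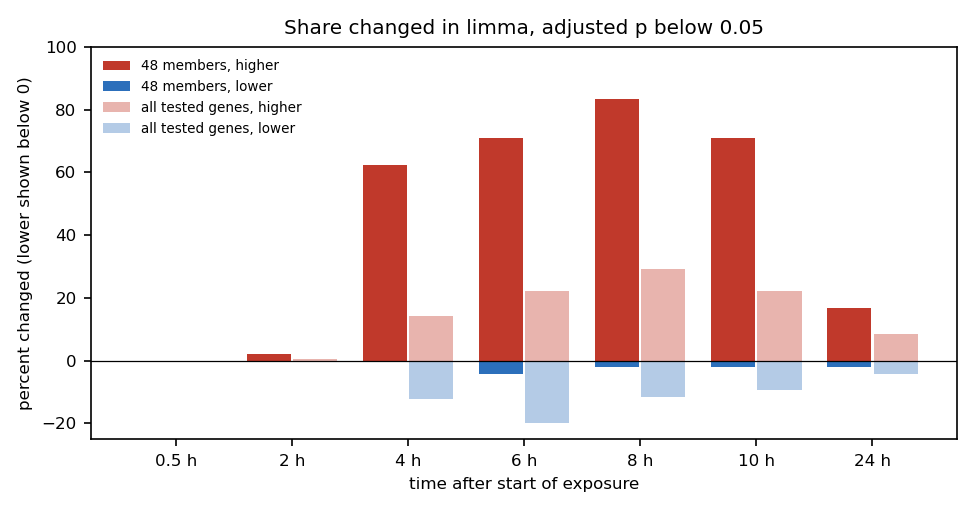
Percent of the 48 genes (dark bars) and of all 13614 tested genes (pale bars) called higher (red, above 0) or lower (blue, below 0) at each time. At 8 h 83.3% of the 48 genes and 29.2% of all genes were higher.

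Of the 48 genes, 46 passed the filter of 1 FPKM in at least 3 libraries. Sgsh, a heparan N-sulfatase, and Lipa, the acid lipase, stayed below 1 FPKM in every library, with highest values of 0.760 and 0.814 FPKM, and were not tested. Naglu and Idua, which degrade heparan sulfate, passed through 3 and 12 treated libraries and no untreated one, so their calls follow in part from the filter. The counts of called genes given here include both. The other 44 reached 1 FPKM in all 27 libraries.

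The 7 genes of TFEB control moved in different directions. Flcn, Fnip1, Fnip2 and Rragc rose at every time from 4 h to 10 h, while Tfeb itself fell at 6, 8 and 10 h. Tfeb (chromosome 17, 47737030 to 47792419, plus strand, GRCm38) had 3.83, 4.43 and 4.50 FPKM at 6 h, 3.83, 3.78 and 4.66 at 8 h and 3.99, 3.60 and 4.81 at 10 h, against 5.79, 5.71 and 10.7 in untreated cells at 0 h. Every treated library at these times lay below every untreated one, and untreated replicate 3, one of the libraries that stand apart, lay far above its fellows. The log2 change was -0.63 at 6 h (SE 0.17, adjusted p 0.00603), -0.68 at 8 h (adjusted p 0.00398) and -0.67 at 10 h (adjusted p 0.00598). Without untreated 0 h replicate 3 the change at 6 h was -0.36 with an adjusted p of 0.0533, and without all 4 libraries that stand apart it was -0.36 at 6 h (adjusted p 0.00102) and -0.49 at 8 h (adjusted p 0.000219). In a fit of only the groups compared, the adjusted p of Tfeb was 0.110 at 6 h, 0.119 at 8 h and 0.189 at 10 h. At 24 h Tfeb had 5.57, 5.68 and 6.01 FPKM in treated cells and 9.08, 7.69 and 9.44 in untreated cells, a difference of -0.52 that missed the threshold (adjusted p 0.0525) although the groups did not overlap. Treated Tfeb averaged 5.79, 6.52, 5.67, 4.25, 4.09, 4.13 and 5.76 FPKM at 0.5, 2, 4, 6, 8, 10 and 24 h, lowest at 8 h. Untreated Tfeb averaged 7.39 FPKM at 0 h and 8.74 at 24 h, and no group had an SD above 2.84 (n = 3).

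Tfe3 (chromosome X, 7762560 to 7775202, plus strand), the second factor of the pair, was called at 1 time only. It had 10.1, 9.55 and 9.62 FPKM at 8 h and 8.75, 8.93 and 7.23 in untreated cells at 0 h, a log2 change of 0.22 (SE 0.07, adjusted p 0.0253). That call was lost without untreated 0 h replicate 3 (change 0.13, adjusted p 0.161) or without treated 8 h replicate 1 (0.19, adjusted p 0.0935), and under median-of-ratios scaling (0.06, adjusted p 0.438). Under that scaling, and without the 4 libraries that stand apart (-0.20, adjusted p 0.0180), Tfe3 was instead called lower at 4 h, where it had 7.60, 7.55 and 7.57 FPKM. Treated Tfe3 averaged 9.03, 8.77, 7.57, 8.02, 9.77, 8.61 and 8.68 FPKM at 0.5, 2, 4, 6, 8, 10 and 24 h, highest at 8 h. Untreated Tfe3 averaged 8.31 FPKM at 0 h and 8.25 at 24 h, and no group had an SD above 0.933 (n = 3).

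Flcn (chromosome 11, 59791408 to 59810016, minus strand) encodes folliculin and was called at every time from 4 h to 10 h. It had 22.5, 21.6 and 22.7 FPKM at 4 h and 29.0, 29.2 and 30.2 at 6 h, against 9.38, 9.80 and 7.10 in untreated cells at 0 h. Its log2 change was 1.26 at 4 h (SE 0.09, adjusted p 7.18e-10), 1.65 at 6 h (adjusted p 4.51e-12), 1.13 at 8 h and 0.71 at 10 h. The libraries of each of these times lay above all untreated ones. Flcn then declined between neighbouring times, by -0.53 on the log2 scale between 6 h and 8 h (adjusted p 0.000138) and by -0.42 between 8 h and 10 h (adjusted p 0.00807), and at 24 h it averaged 10.96 ± 0.667 FPKM in treated and 10.3 ± 0.829 in untreated cells (SD, n = 3 each). Treated Flcn averaged 10.3, 9.48, 22.3, 29.5, 20.1, 14.9 and 10.96 FPKM at 0.5, 2, 4, 6, 8, 10 and 24 h, highest at 6 h. Untreated Flcn averaged 8.76 FPKM at 0 h and 10.3 at 24 h, and no group had an SD above 1.45 (n = 3).

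Both folliculin partners rose, with peaks at different times. Fnip2 had 11.4, 10.97 and 11.95 FPKM at 6 h against 4.03, 3.89 and 1.31 in untreated cells at 0 h, with a log2 change of 1.69 (SE 0.25, adjusted p 1.03e-05). Fnip1 was highest at 8 h, at 9.49 ± 2.46 FPKM against 3.63 ± 1.69 in untreated cells (SD, n = 3 each), a change of 1.23 (adjusted p 0.00053). Both were low in libraries that stand apart: Fnip1 had 6.66 FPKM in treated 8 h replicate 3, against 10.7 and 11.1 in the other 8 h libraries, and 1.68 FPKM in untreated 0 h replicate 3, against 4.58 and 4.65 in the other untreated ones. Without the 4 libraries the change was 1.33 for Fnip2 at 6 h and 1.09 for Fnip1 at 8 h. At 10 h the call of Fnip2 (0.71, adjusted p 0.0342) was lost without untreated 0 h replicate 3 (0.34, adjusted p 0.270), without treated 10 h replicate 1 (0.63, adjusted p 0.122) and without treated 10 h replicate 2 (0.55, adjusted p 0.163). The call of Fnip1 at 4 h (0.69, adjusted p 0.0478) was lost when any library of treated 4 h, or untreated 0 h replicate 3, was left out, with adjusted p values from 0.0516 to 0.268. The call of Fnip1 at 10 h was lost without untreated 0 h replicate 3 (0.60, adjusted p 0.0535). Treated Fnip1 averaged 4.45, 3.33, 6.10, 8.87, 9.49, 7.76 and 5.02 FPKM at 0.5, 2, 4, 6, 8, 10 and 24 h, highest at 8 h. Untreated Fnip1 averaged 3.63 FPKM at 0 h and 3.79 at 24 h, and no group had an SD above 2.47 (n = 3). Treated Fnip2 averaged 3.63, 2.52, 7.95, 11.4, 6.79, 5.46 and 3.85 FPKM at 0.5, 2, 4, 6, 8, 10 and 24 h, highest at 6 h. Untreated Fnip2 averaged 3.07 FPKM at 0 h and 3.25 at 24 h, and no group had an SD above 1.76 (n = 3).

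The Rag GTPases differed from each other. Rragc averaged 22.2 ± 0.507 FPKM at 4 h and 22.3 ± 1.31 at 6 h, against 10.2 ± 1.57 in untreated cells at 0 h (SD, n = 3 each), and its change was 1.06 at 4 h (adjusted p 1.44e-08) and 1.07 at 6 h. At 24 h it was 13.1 ± 0.326 FPKM in treated and 12.7 ± 0.705 in untreated cells. Rragd did not pass the test before 10 h, when it averaged 9.30 ± 1.81 FPKM against 6.45 ± 1.99 in untreated cells at 0 h (change 0.49, adjusted p 0.0268, groups overlapping). At 24 h Rragd had 9.55, 9.84 and 9.64 FPKM in treated cells and 5.92, 7.33 and 6.17 in untreated cells, a change of 0.52 (adjusted p 0.0406). Both Rragd calls rest on single libraries: at 10 h the change was 0.25 (adjusted p 0.214) without untreated 0 h replicate 3, 0.42 (adjusted p 0.112) without treated 10 h replicate 1 and 0.40 (adjusted p 0.120) without treated 10 h replicate 2. At 24 h the adjusted p lay between 0.0913 and 0.143 when any treated library, or untreated 24 h replicate 1 or 3, was left out. Treated Rragc averaged 10.7, 10.7, 22.2, 22.3, 21.6, 18.2 and 13.1 FPKM at 0.5, 2, 4, 6, 8, 10 and 24 h, highest at 6 h. Untreated Rragc averaged 10.2 FPKM at 0 h and 12.7 at 24 h, and no group had an SD above 1.57 (n = 3). Treated Rragd averaged 7.20, 6.37, 7.41, 6.92, 8.08, 9.30 and 9.68 FPKM at 0.5, 2, 4, 6, 8, 10 and 24 h, highest at 24 h. Untreated Rragd averaged 6.45 FPKM at 0 h and 6.47 at 24 h, and no group had an SD above 1.99 (n = 3).

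**Figure D3:**
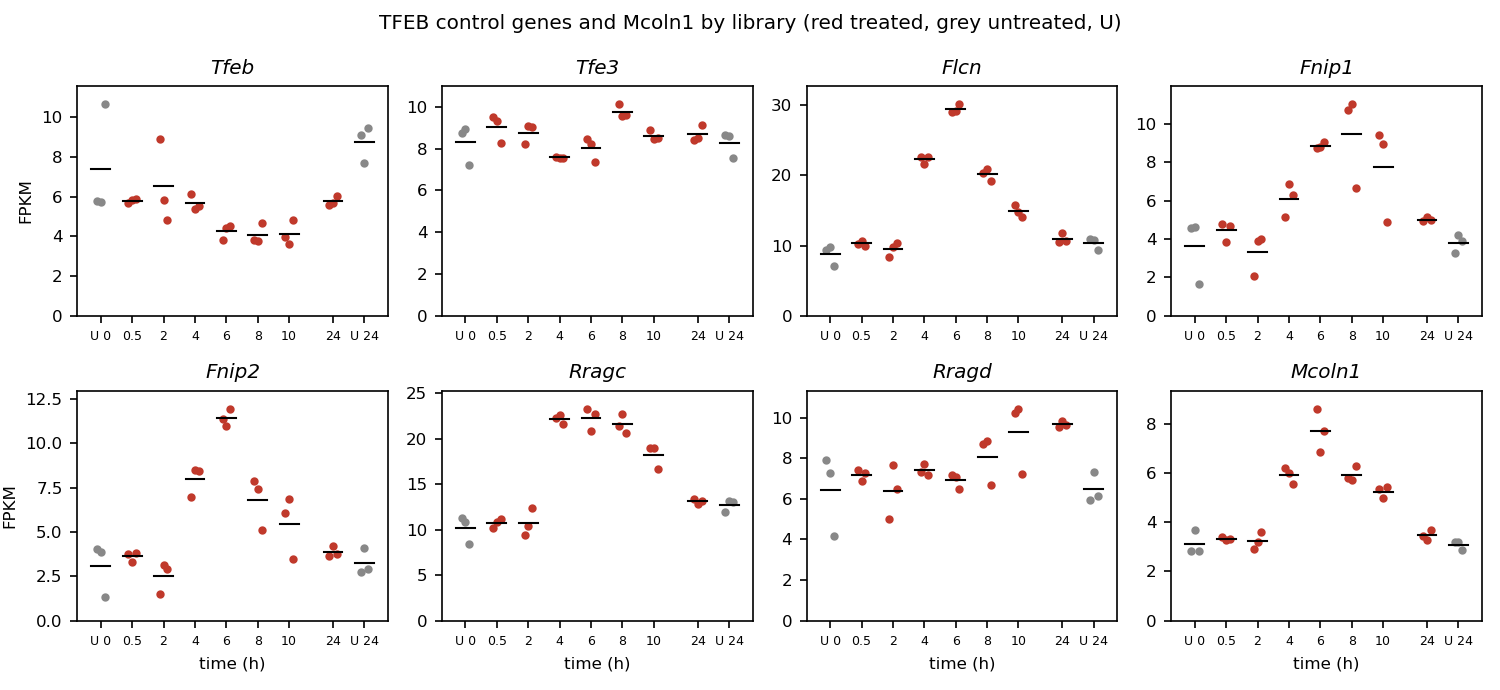
FPKM of the 7 TFEB control genes and the calcium channel gene Mcoln1 in each library (points, treated red, untreated grey and marked U) with group means (bars), by time in h. Flcn and Fnip2 peak at 6 h, Rragc holds a plateau from 4 h to 8 h, Tfeb is lowest at 6 to 10 h, and Rragd is highest at 10 h and in treated cells at 24 h.

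Of the 12 glycosidases, 8 were higher at 4 h, 10 at 6 h, 11 at 8 h and 8 at 10 h, and 1, Manba, was lower at 6 h. These counts include Idua at each time and Naglu at 8 h, which passed the filter through treated libraries only. Hyal1 (chromosome 9, 107576927 to 107581710, plus strand), a hyaluronidase, had the largest change of the 48 genes. It had 13.04, 15.5 and 15.8 FPKM at 4 h and 17.9, 19.5 and 19.5 at 6 h, against 5.00, 5.16 and 1.48 in untreated cells at 0 h. The log2 change was 1.80 at 4 h (SE 0.29, adjusted p 5.62e-05) and 2.15 at 6 h (adjusted p 3.15e-06), with no overlap of the groups. Between 6 h and 8 h the level fell, to 9.52, 10.5 and 7.001 FPKM at 8 h (step of -1.01, adjusted p 0.0124), and the step between 8 h and 10 h was 0.03 (adjusted p 0.986). Untreated 0 h replicate 3 and treated 2 h replicate 1 had the lowest Hyal1 levels of all, 1.48 and 2.20 FPKM, and without the 4 libraries that stand apart the change was 1.37 at 4 h and 1.72 at 6 h. Treated Hyal1 averaged 5.12, 4.82, 14.8, 19.0, 9.01, 9.19 and 8.37 FPKM at 0.5, 2, 4, 6, 8, 10 and 24 h, highest at 6 h. Untreated Hyal1 averaged 3.88 FPKM at 0 h and 3.17 at 24 h, and no group had an SD above 2.28 (n = 3).

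Man2b1 (chromosome 8, 85083270 to 85098282, plus strand), the lysosomal alpha-mannosidase, had 30.4, 26.7 and 29.8 FPKM at 6 h against 8.81, 8.77 and 6.96 in untreated cells at 0 h. Its change was 0.66 at 4 h, 1.71 at 6 h (SE 0.08, adjusted p 3.19e-13), 1.43 at 8 h and 1.20 at 10 h. Much of its rise came after 4 h, with a step of 1.05 between 4 h and 6 h (adjusted p 1.44e-08). Gaa, the acid alpha-glucosidase that degrades glycogen, had 42.2, 41.1 and 42.0 FPKM at 6 h against 16.0, 17.3 and 14.7 in untreated cells (change 1.33, adjusted p 4.60e-12). Hexa, the alpha subunit of beta-hexosaminidase A, was highest at 8 h, with 56.9, 58.2 and 66.2 FPKM against 22.5, 23.8 and 25.1 in untreated cells (change 1.31, adjusted p 7.40e-11). In all 3 genes the groups did not overlap, and Man2b1 and Gaa, but not Hexa, were also called higher at 24 h. Treated Man2b1 averaged 8.66, 7.91, 13.4, 29.0, 23.7, 20.0 and 10.5 FPKM at 0.5, 2, 4, 6, 8, 10 and 24 h, highest at 6 h. Untreated Man2b1 averaged 8.18 FPKM at 0 h and 7.34 at 24 h, and no group had an SD above 2.02 (n = 3). Treated Gaa averaged 17.3, 16.9, 27.3, 41.8, 37.8, 31.8 and 18.8 FPKM at 0.5, 2, 4, 6, 8, 10 and 24 h, highest at 6 h. Untreated Gaa averaged 16.0 FPKM at 0 h and 14.9 at 24 h, and no group had an SD above 2.42 (n = 3). Treated Hexa averaged 22.6, 24.8, 44.0, 55.2, 60.4, 47.4 and 23.2 FPKM at 0.5, 2, 4, 6, 8, 10 and 24 h, highest at 8 h. Untreated Hexa averaged 23.8 FPKM at 0 h and 24.9 at 24 h, and no group had an SD above 5.03 (n = 3).

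The other glycosidases moved less. Neu1, the sialidase, averaged 5.90 ± 0.321 FPKM at 6 h against 2.60 ± 0.284 in untreated cells at 0 h (SD, n = 3 each; change 0.94, adjusted p 2.33e-09). Glb1, the beta-galactosidase, rose at 4 to 10 h by at most 0.52, and Gla, the alpha-galactosidase, at 4 to 8 h by at most 0.32. Man2b2 and Gusb were first called at 6 h and Naglu at 8 h. The call of Gusb at 8 h (0.24, adjusted p 0.0216) was lost without untreated 0 h replicate 3 (0.18, adjusted p 0.109), without untreated 0 h replicate 1 (0.23, adjusted p 0.0531) and without treated 8 h replicate 1 (0.24, adjusted p 0.0517). Manba, the beta-mannosidase, went the other way, with 14.7 ± 0.729 FPKM at 6 h against 20.3 ± 2.78 in untreated cells (change -0.43, adjusted p 0.00131).

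Among the 4 sulfatases only Arsa passed the test. Arsa, which acts on sulfatide, was higher at 8 h (0.42, adjusted p 0.000664) and 10 h (0.30, adjusted p 0.0120). The 10 h call missed the threshold without untreated 0 h replicate 1 (0.24, adjusted p 0.0525). Ids and Galns were not called at any time against untreated cells, with changes between -0.19 and 0.26 from 0.5 h to 10 h.

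The lipid genes rose late. At 4 h 1 of the 6, Psap, was higher, at 6 h 2 and at 8 h 5, that is, all of those tested. Psap, the precursor of the saposins that activate sphingolipid hydrolases, was 96.5 ± 3.63 FPKM at 8 h and 67.9 ± 13.1 in untreated cells at 0 h (SD, n = 3 each; change 0.52, adjusted p 0.00059). Asah1, the acid ceramidase, was 39.1 ± 1.52 FPKM at 8 h and 27.1 ± 5.98 in untreated cells (change 0.54, adjusted p 0.000569). Smpd1, the acid sphingomyelinase, did not pass the test against untreated cells up to 6 h (2.37 ± 0.174 FPKM against 2.09 ± 0.160) and was 3.98 ± 0.352 FPKM at 8 h. Its step between 6 h and 8 h was 0.56 (adjusted p 6.04e-05). The cholesterol transporters Npc1 and Npc2 were called at 8 h only (0.48, adjusted p 0.0128, and 0.42, adjusted p 0.0391). Npc2 missed the threshold when untreated 0 h replicate 1 or 2 or any 8 h library was left out (adjusted p 0.0554 to 0.177), and Npc1 without untreated 0 h replicate 3 (0.25, adjusted p 0.114) or treated 8 h replicate 2 (0.42, adjusted p 0.0622). The call of Psap at 4 h (0.34, adjusted p 0.0209) was likewise lost without untreated 0 h replicate 3 (0.17, adjusted p 0.129) and without treated 4 h replicate 1 or 2 (adjusted p 0.0641 and 0.0548). Treated Psap averaged 76.8, 69.7, 85.1, 95.7, 96.5, 99.2 and 101 FPKM at 0.5, 2, 4, 6, 8, 10 and 24 h, highest at 24 h. Untreated Psap averaged 67.9 FPKM at 0 h and 69.5 at 24 h, and no group had an SD above 13.1 (n = 3). Treated Asah1 averaged 28.7, 26.8, 30.0, 36.3, 39.1, 39.2 and 35.9 FPKM at 0.5, 2, 4, 6, 8, 10 and 24 h, highest at 10 h. Untreated Asah1 averaged 27.1 FPKM at 0 h and 27.8 at 24 h, and no group had an SD above 5.98 (n = 3).

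Among the 8 protease genes, 7 were higher at each of 4, 6, 8 and 10 h, Ctsz being the exception. Dpp7 (chromosome 2, 25352276 to 25356359, minus strand) was the earliest of the 48 genes to change. It had 10.6, 10.4 and 12.2 FPKM at 2 h and 28.5, 24.5 and 26.7 at 4 h, against 6.81, 6.97 and 7.08 in untreated cells at 0 h. The change was 0.60 at 2 h (SE 0.09, adjusted p 0.000372) and 1.79 at 4 h (adjusted p 1.88e-12). The call at 2 h held when any single library was left out and was lost in a fit of only the groups compared. Of the 43 genes called at least once up to 10 h, Dpp7 was the only one with its largest change at 4 h: the level fell by 0.26 on the log2 scale between 4 h and 6 h (adjusted p 0.0340) and by 0.44 between 6 h and 8 h (adjusted p 0.000661). Treated Dpp7 averaged 7.47, 11.1, 26.5, 21.9, 15.9, 13.5 and 7.41 FPKM at 0.5, 2, 4, 6, 8, 10 and 24 h, highest at 4 h. Untreated Dpp7 averaged 6.95 FPKM at 0 h and 7.99 at 24 h, and no group had an SD above 2.09 (n = 3).

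Ctsd (chromosome 7, 142375911 to 142388038, minus strand), among the most abundant of the 48 genes with Lamp1, reached 263 ± 6.13 FPKM at 6 h against 124 ± 14.3 in untreated cells at 0 h (SD, n = 3 each; change 1.08, adjusted p 3.96e-09). Tpp1, a tripeptidyl peptidase, reached 33.2 ± 2.20 FPKM at 6 h against 13.2 ± 2.22 in untreated cells (change 1.28, adjusted p 2.28e-10). Grn, which encodes progranulin, rose more slowly and held its level, at 51.8 ± 2.58 FPKM at 8 h and 51.4 ± 4.11 at 10 h against 28.9 ± 0.0944 in untreated cells (changes 0.82 and 0.81). Ctsb, Ctsa and Ctsl rose by up to 0.77, 0.75 and 0.49. The calls of Ctsl at every time were lost when levels were corrected for GC content and length (adjusted p 0.0772 to 0.278 at 4 to 10 h). Its change was then 0.33 at 4 h, 0.21 at 6 h, 0.32 at 8 h and 0.36 at 10 h, against 0.33, 0.32, 0.45 and 0.49 without the correction. Treated Ctsd averaged 117, 131, 217, 263, 260, 217 and 148 FPKM at 0.5, 2, 4, 6, 8, 10 and 24 h, highest at 6 h. Untreated Ctsd averaged 124 FPKM at 0 h and 126 at 24 h, and no group had an SD above 19.7 (n = 3). Treated Tpp1 averaged 15.3, 14.7, 23.1, 33.2, 29.6, 25.6 and 17.0 FPKM at 0.5, 2, 4, 6, 8, 10 and 24 h, highest at 6 h. Untreated Tpp1 averaged 13.2 FPKM at 0 h and 14.3 at 24 h, and no group had an SD above 2.33 (n = 3). Treated Grn averaged 29.9, 29.5, 39.3, 48.2, 51.8, 51.4 and 37.0 FPKM at 0.5, 2, 4, 6, 8, 10 and 24 h, highest at 8 h. Untreated Grn averaged 28.9 FPKM at 0 h and 36.3 at 24 h, and no group had an SD above 4.11 (n = 3).

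**Figure D4:**
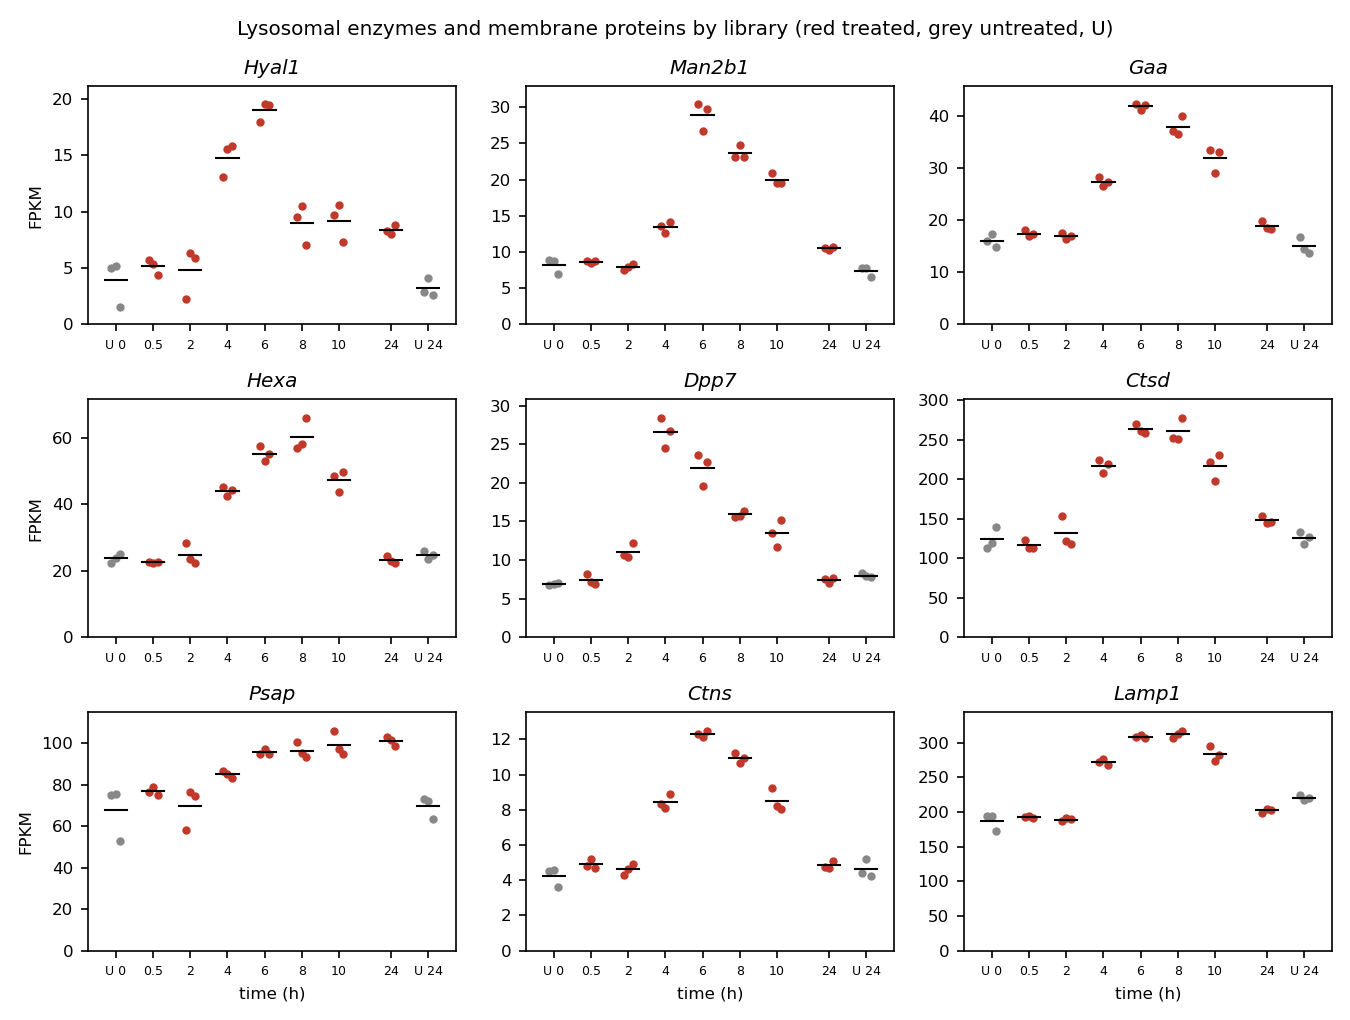
FPKM of 9 genes for lysosomal enzymes and membrane proteins in each library (points, treated red, untreated grey and marked U) with group means (bars), by time in h. Dpp7 peaks at 4 h, Hyal1 and Man2b1 at 6 h and Hexa at 8 h, and Psap is as high at 24 h as at 10 h, while treated Lamp1 libraries at 24 h lie between the untreated ones of 0 h and of 24 h.

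All 8 membrane protein genes were higher at each of 4, 6, 8 and 10 h, the only role of which this held. Ctns, the cystine exporter, had 12.3, 12.1 and 12.5 FPKM at 6 h against 4.52, 4.55 and 3.61 in untreated cells at 0 h (change 1.35, SE 0.08, adjusted p 7.34e-12). Sidt2, a transporter of nucleic acids into lysosomes, had 24.0, 22.8 and 23.4 FPKM at 6 h against 9.79, 10.2 and 7.37 in untreated cells (change 1.28, adjusted p 2.14e-10). Wdr81, a WD-repeat protein of the endosomal system, had 6.04, 6.00 and 6.07 FPKM at 6 h against 2.13, 2.37 and 1.19 in untreated cells (change 1.31, adjusted p 3.30e-08). Treated and untreated libraries did not overlap in any of these, and each had its highest mean at 6 h. Treated Ctns averaged 4.90, 4.62, 8.46, 12.3, 10.9, 8.51 and 4.84 FPKM at 0.5, 2, 4, 6, 8, 10 and 24 h, highest at 6 h. Untreated Ctns averaged 4.23 FPKM at 0 h and 4.61 at 24 h, and no group had an SD above 0.621 (n = 3). Treated Sidt2 averaged 10.0, 8.65, 13.6, 23.4, 23.2, 17.1 and 12.2 FPKM at 0.5, 2, 4, 6, 8, 10 and 24 h, highest at 6 h. Untreated Sidt2 averaged 9.13 FPKM at 0 h and 7.94 at 24 h, and no group had an SD above 1.54 (n = 3). Treated Wdr81 averaged 2.30, 2.01, 4.39, 6.04, 5.58, 4.84 and 2.43 FPKM at 0.5, 2, 4, 6, 8, 10 and 24 h, highest at 6 h. Untreated Wdr81 averaged 1.90 FPKM at 0 h and 1.99 at 24 h, and no group had an SD above 0.640 (n = 3).

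Mcoln1 (chromosome 8, 3500457 to 3515232, plus strand), the calcium channel TRPML1, was 7.72 ± 0.891 FPKM at 6 h and 3.10 ± 0.498 in untreated cells at 0 h (SD, n = 3 each; change 1.09, adjusted p 1.15e-09), and it had declined by 8 h (step of -0.33, adjusted p 0.00637). Lamp1 (chromosome 8, 13159161 to 13175338, plus strand) was 309 ± 2.41 FPKM at 6 h and 187 ± 12.5 in untreated cells (change 0.72, adjusted p 2.17e-10). Lamp2 and Scarb2, the sorting receptor of beta-glucocerebrosidase, were highest at 8 h, with changes of 1.03 and 1.07, and Cln3 reached 0.74. At 4 h the calls of Lamp2 (0.48, adjusted p 0.0221) and Scarb2 (0.50, adjusted p 0.0258) were lost without untreated 0 h replicate 3 (0.27, adjusted p 0.137, and 0.26, adjusted p 0.161) and without treated 4 h replicate 2 or 3 (adjusted p 0.0543 to 0.0813). Treated Mcoln1 averaged 3.33, 3.24, 5.91, 7.72, 5.92, 5.25 and 3.47 FPKM at 0.5, 2, 4, 6, 8, 10 and 24 h, highest at 6 h. Untreated Mcoln1 averaged 3.10 FPKM at 0 h and 3.09 at 24 h, and no group had an SD above 0.891 (n = 3).

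The 3 V-ATPase subunits were all higher at 6 h and 8 h. Atp6v0d1, of the membrane sector, was 105 ± 8.73 FPKM at 8 h and 62.9 ± 8.83 in untreated cells at 0 h (SD, n = 3 each; change 0.74, adjusted p 4.50e-06). Atp6v1h, a regulatory subunit, was 12.6 ± 0.264 FPKM at 8 h and 8.04 ± 0.746 in untreated cells (change 0.60, adjusted p 7.46e-07). Atp6v1a, the catalytic subunit, had 52.9, 52.9 and 41.0 FPKM at 8 h against 38.1, 37.9 and 18.2 in untreated cells (change 0.69, adjusted p 0.0154). The low values of Atp6v1a were again in libraries that stand apart. Without untreated 0 h replicate 3 its change was 0.37 at 6 h (adjusted p 0.110) and 0.35 at 8 h (adjusted p 0.139), and the 8 h call was also lost without treated 8 h replicate 1 or 2 (adjusted p 0.0586 and 0.0590), while without all 4 libraries it was 0.37 (adjusted p 0.000814) and 0.47 (adjusted p 0.000273). The call of Atp6v1h at 4 h (0.24, adjusted p 0.0110) was lost without untreated 0 h replicate 3 (0.18, adjusted p 0.0529) and without treated 4 h replicate 2 (0.21, adjusted p 0.0646). Treated Atp6v0d1 averaged 57.7, 64.6, 94.4, 104, 105, 95.0 and 60.5 FPKM at 0.5, 2, 4, 6, 8, 10 and 24 h, highest at 8 h. Untreated Atp6v0d1 averaged 62.9 FPKM at 0 h and 63.4 at 24 h, and no group had an SD above 10.6 (n = 3). Treated Atp6v1h averaged 7.88, 8.22, 9.69, 10.9, 12.6, 12.03 and 8.51 FPKM at 0.5, 2, 4, 6, 8, 10 and 24 h, highest at 8 h. Untreated Atp6v1h averaged 8.04 FPKM at 0 h and 8.94 at 24 h, and no group had an SD above 0.829 (n = 3). Treated Atp6v1a averaged 36.6, 34.5, 44.1, 49.2, 48.9, 45.3 and 45.7 FPKM at 0.5, 2, 4, 6, 8, 10 and 24 h, highest at 6 h. Untreated Atp6v1a averaged 31.4 FPKM at 0 h and 33.5 at 24 h, and no group had an SD above 11.4 (n = 3).

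The steps between neighbouring times place the rise between 2 h and 6 h. Between 0.5 h and 2 h 1 of the 48 genes rose, Dpp7 (1.17% of all tested genes changed, 0.367% higher and 0.801% lower). Between 2 h and 4 h 29 rose and 0 fell, when 10.2% of all genes rose and 9.89% fell. Between 4 h and 6 h 18 rose and 2 fell (11.6% and 8.48% of all genes), the 2 being Manba and Dpp7. Between 6 h and 8 h the genes divided: Naglu, Smpd1, Atp6v1h and Tfe3 rose, and Man2b1, Hyal1, Dpp7, Mcoln1, Flcn and Fnip2 fell, when 18.1% of all genes rose and 6.02% fell. Naglu passed the filter through treated libraries only, so its steps here and below follow in part from the filter. Under median-of-ratios scaling 1 rose at this step, Smpd1, and 11 fell, with 12.2% and 12.3% of all genes. Between 8 h and 10 h none rose and 7 fell (Hexa, Gla, Naglu, Neu1, Ctns, Sidt2 and Flcn), when 1.78% of all genes rose and 3.58% fell (5.37% in all). These counts moved with single libraries. The 4 to 6 h count of 20 was 12 without treated 4 h replicate 1 or treated 6 h replicate 2 and 13 without treated 6 h replicate 3. The 6 to 8 h count of 10 was 5 without treated 6 h replicate 1 and 6 without treated 8 h replicate 3. The 8 to 10 h count of 7 was 3 without treated 10 h replicate 2. The change against untreated cells was largest at 4 h for 1 of the 43 genes called at least once from 0.5 h to 10 h, at 6 h for 19, at 8 h for 20 and at 10 h for 3, and 29 genes were called higher at all of 4, 6, 8 and 10 h. For the 43, the times of largest change and the 29, shares over all tested genes were not counted. These counts therefore have no background beside them.

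At 24 h, against untreated cells of the same age, 8 genes were higher: Man2b1, Gaa, Hyal1, Asah1, Psap, Ctsl, Sidt2 and Rragd. All 8 had also been higher at 10 h. Hyal1 kept the largest difference, with 8.26, 8.05 and 8.79 FPKM in treated cells and 2.82, 4.09 and 2.60 in untreated cells at 24 h (change 1.18, SE 0.29, adjusted p 0.00955). Sidt2 had 12.2, 12.5 and 11.9 FPKM in treated cells and 8.19, 8.29 and 7.34 in untreated cells (change 0.57, adjusted p 0.000301). Psap was 101 ± 2.36 FPKM in treated and 69.5 ± 5.30 in untreated cells (SD, n = 3 each; change 0.54, adjusted p 0.0025). Treated libraries lay above all untreated ones in each. Man2b1 differed by 0.46 (adjusted p 0.00052) and Gaa by 0.32 (adjusted p 0.00639). Ctsa, a carboxypeptidase that also protects Neu1 and Glb1, was lower, at 13.3 ± 0.642 FPKM in treated and 17.2 ± 0.984 in untreated cells (change -0.35, adjusted p 0.0058), although it had been higher at 10 h (0.48). Without untreated 24 h replicate 3 the count of 9 fell to 5, with an adjusted p of 0.0510 each for Hyal1 (1.09) and Gaa (0.26), and without 1 of the other libraries it was 6 to 9. The calls of Asah1 (0.36, adjusted p 0.0349) and Ctsl (0.20, adjusted p 0.0192) were lost in 5 and 4 of the 6 fits that leave out 1 library (adjusted p 0.0588 to 0.167 and 0.0505 to 0.0847), and under GC and length correction the difference of Ctsl was -0.00421 (adjusted p 0.988). Without the 4 libraries that stand apart, none of which is at 24 h, 24 genes were called at 24 h, 18 higher and 6 lower, with the same differences and another estimate of the spread. That fit called 33.1% of all genes higher and 18.2% lower, 51.3% in all, so the count is near the background. The 24 h groups also differed in markers of other cell types: 23 hepatocyte markers summed to 1.70 to 2.30 FPKM in treated and 55.3 to 77.6 in untreated cells, and 9 primitive endoderm markers to 116 to 121 and 79.8 to 84.1 FPKM. Their part in the 24 h differences was not tested.

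The 24 h effect was smaller than the 10 h effect in 24 of the 48 genes and larger in none by the test of the difference itself, against 5.75% and 2.95% of all tested genes (8.70% in all). Hexa showed the largest difference, with a change of -0.09 at 24 h and 0.96 at 10 h (difference -1.06, SE 0.11, adjusted p 2.09e-06). Lamp1 followed the same course, with -0.13 at 24 h and 0.60 at 10 h (adjusted p 1.14e-06). For Hyal1, Psap and Rragd the 2 effects lay within 0.03 of each other, with differences of 0.02 (SE 0.41), -0.02 (SE 0.15) and 0.03 (SE 0.23) and adjusted p values of 0.964 or more, and for Tfeb they were -0.52 and -0.67 (adjusted p 0.838). The untreated groups differ between these effects, since the controls of 10 h were collected at 0 h.

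**Figure D5:**
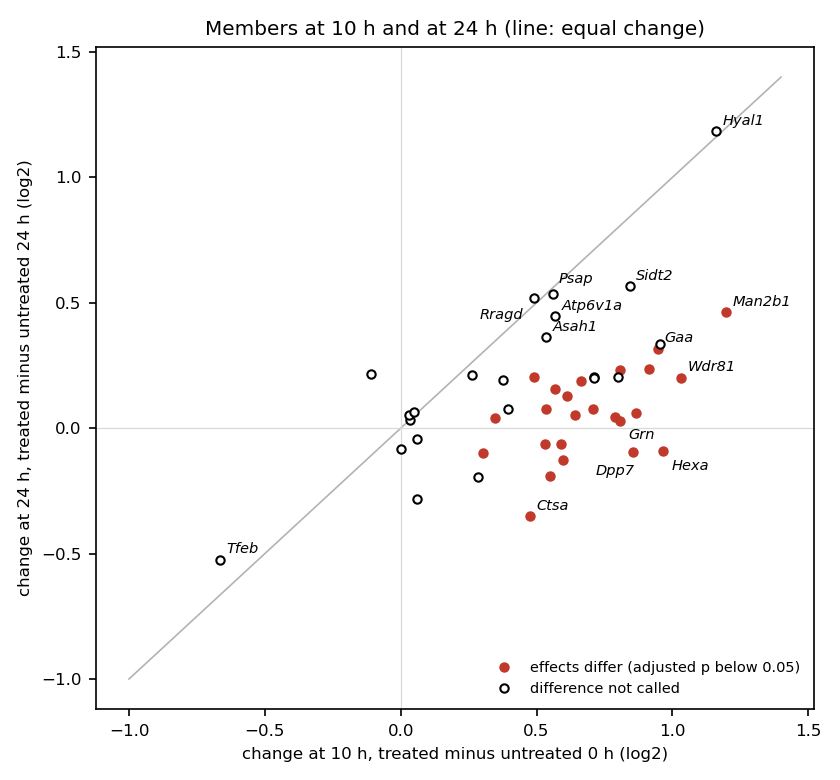
Log2 change at 24 h (treated minus untreated 24 h, y axis) against that at 10 h (treated minus untreated 0 h, x axis) for the 46 tested genes, filled red where the effects differ with a limma adjusted p below 0.05. The red points lie below the line of equal change, while Hyal1, Psap, Rragd and Tfeb lie near it.

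The untreated groups were also compared with each other. Between untreated cells at 24 h and at 0 h 2 of the 48 genes changed, when 0.705% of all tested genes did (0.426% higher, 0.279% lower). Grn was 36.3 ± 2.32 FPKM in untreated cells at 24 h and 28.9 ± 0.0944 at 0 h (SD, n = 3 each; change 0.32, adjusted p 0.0170), and Lamp1 was 221 ± 4.07 and 187 ± 12.5 FPKM (change 0.24, adjusted p 0.0262). Leaving out untreated 24 h replicate 1 or 3 left 0 calls, leaving out replicate 2 of either group left 1, and leaving out untreated 0 h replicate 3 gave 4. With both untreated groups as control, 30 of the 48 genes were called at 4 h, 37 at 6 h, 41 at 8 h and 36 at 10 h, and 31.0%, 48.04%, 46.3% and 38.8% of all genes.

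Lysosome and autophagy genes outside the 48 were counted in the same way. Of 140 listed genes 124 were tested, and 39 were higher and 7 lower at 4 h, 54 and 15 at 6 h, 66 and 5 at 8 h, 47 and 6 at 10 h and 12 and 2 at 24 h. The share higher was 31.5% at 4 h, 43.5% at 6 h, 53.2% at 8 h, 37.9% at 10 h and 9.68% at 24 h. Of all tested genes 14.2%, 22.3%, 29.2%, 22.2% and 8.63% were higher at these times. The share lower was 5.65%, 12.1%, 4.03%, 4.84% and 1.61%, against 12.1%, 20.0%, 11.6%, 9.43% and 4.28% of all tested genes. The median log2 change of the 124 genes was 0.29 at 8 h. Of 15 further V-ATPase subunits tested, 10 were higher at 8 h, among them Atp6v0b (51.3 ± 7.23 FPKM against 25.8 ± 6.02 in untreated cells at 0 h, change 0.98) and the accessory subunit Atp6ap1 (0.95). Of 26 other membrane proteins tested, 17 were higher and 1 lower, with Gpnmb at 2.61 ± 0.351 FPKM against 0.180 ± 0.0342 (change 1.61, adjusted p 8.49e-12) and Laptm4b at 39.4 ± 2.14 against 18.4 ± 0.795 (change 1.06). Gpnmb lay below the filter of 1 FPKM in untreated 0 h cells, so its call may follow in part from the filter. Of 26 other hydrolases 13 were higher and 2 lower, among the risers Ctsc (0.75). Of 23 autophagy genes 16 were higher and 1 lower, including the cargo receptor Sqstm1 (99.1 ± 10.1 FPKM against 43.9 ± 6.15, change 1.16) and Gabarapl1, which belongs to the LC3 family (1.09). Among 11 genes that sort hydrolases 5 were higher, with Vps26a of the retromer at 0.77 and Gnptg at 0.76.

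Of 22 other Rag, Ragulator, GATOR and TSC genes, which act upstream of TFEB, 5 were higher and 0 lower at 8 h, among them Lamtor3 (0.60) and Tsc1 (0.53), while at 6 h 5 were higher and 4 lower. The shares higher, 22.7% at both times, and the share lower at 6 h, 18.2%, were near those of all tested genes at 6 h (22.3% and 20.0%) and below them at 8 h (29.2% and 11.6%). These differences were not tested. Mitf, the relative of TFEB known from melanocytes, also fell, to 1.64 ± 0.284 FPKM at 8 h against 4.50 ± 1.11 in untreated cells at 0 h (SD, n = 3 each; change -1.04, adjusted p 1.46e-06), and the other relative, Tfec, was not tested. Mitf took another course than Tfeb: it was called lower from 4 h to 10 h, with changes of -0.94 at 4 h, -1.36 at 6 h and -0.58 at 10 h. At 24 h its change was -0.04, not called.

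The authors' deposited table of their own comparisons marks 0 of the 48 genes as significant at 0.5 h and at 2 h, 9 at 4 h, 19 at 6 h, 16 at 8 h, 4 at 10 h and 1, Hyal1, at 24 h, all of them higher. In the authors' deposited table the q-value was below 0.05 for 19 of the 48 genes at 4 h, 30 at 6 h, 25 at 8 h and 13 each at 10 h and 24 h. Of these, Manba and Tfeb were lower at 6 h and 8 h and Tfeb at 10 h. Tfeb, Ctsa, Ctsz, Lamp1 and Npc2 were lower at 24 h. Among the 48 genes every mark went with a log2 fold of at least 1 and a q-value below 0.05. Man2b1 at 24 h (log2 fold 0.51, q-value 0.000104) and Hexa at 10 h (log2 fold 0.995, q-value 0.00627) were not marked significant. The marks and the limma calls are therefore unlike measures. Shares over all genes were not counted there, so these counts have no background beside them. That table gives Hyal1 a log2 fold of 2.29 at 6 h (q-value 2.20e-08) and Man2b1 one of 1.83 (q-value 5.32e-28).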

How the data were processed

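Expression was measured by paired-end, strand-specific poly(A) RNA sequencing in 27 libraries. The authors deposited FPKM values per gene in 7 tables, which were joined by gene ID. Columns repeated between tables held the same values (15 compared, 0 differed), and log2 folds, p-values and q-values in those tables are the authors' own. The submitters' processing notes name FastQC, cutadapt, HISAT2, StringTie, edgeR and mm10. Not given in the sources used here were versions, the gene annotation and the strand setting of counting, so overlapping genes may share reads. FPKM holds no counts, so no interval for counting error could be given.

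The 48 genes and the gene lists were chosen with earlier results of these data known. Log2(FPKM + 1) of the 13614 genes with at least 1 FPKM in at least 3 libraries was fitted with limma 3.58.1 (trend, 9 group means) in R 4.3.3, with Benjamini-Hochberg adjustment per comparison, two-sided, called below 0.05. The median standard error was 0.13. The 24 h effect was tested against the 10 h effect in the same fit. Tables and figures used Python 3.11.15, pandas 2.3.3, numpy 2.4.6 and matplotlib 3.10.9.

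Values in every group were printed for the 7 TFEB control genes and, per role, for up to 4 called genes with the largest change at 4 to 10 h, a mean of at least 5 FPKM and groups that did not overlap. Single-library values were printed for up to 10 of these with the largest change, and for Tfeb and Tfe3. From each other list up to 2 genes were named, and 1 gene that this rule selects is not reported here. Other genes and single-library values were chosen after their values were seen.

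The series text names 3 independent time courses and numbers the biological replicates, without stating that a number marks a course. Deviations of same-numbered libraries correlated above 0.1 in all 3 pairs at 8 h (0.464, 0.464 and 0.691) and 10 h (0.558, 0.566 and 0.797). The libraries that stand apart in the groups compared there are all replicate 3. These correlations therefore do not show whether a number marks a course. At 2 h the correlations were -0.799, 0.639 and -0.766, and at the other times not all were above 0.1.
The alternatives tried were a pseudocount of 0.1, other filters, median-of-ratios scaling, library weights, other controls, separate fits, a replicate block, a GC and length correction and leaving out libraries.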

Additional observations from a re-analysis of the deposited data

Results flagged for a closer look

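Of the 48 genes, 24 had a smaller effect at 24 h than at 10 h by the test of the difference itself in limma, each given here as the log2 effect at 24 h minus that at 10 h, with its adjusted p. Among the glycosidases the difference was -0.73 for Man2b1 (0.00015), -1.06 for Hexa (2.09e-06), -0.63 for Gaa (0.000346), -0.31 for Glb1 (0.0307), -0.74 for Neu1 (0.000123) and -0.46 for Idua (0.0366). Idua passed the filter through treated libraries only, so its call follows in part from the filter. Arsa, a sulfatase, differed by -0.40 (0.0482) and Smpd1, the acid sphingomyelinase, by -0.48 (0.0194).

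All of the proteases but Ctsz were among them. The difference was -0.83 for Ctsa (4.93e-05), -0.59 for Ctsb (9.94e-05), -0.57 for Ctsd (0.00704), -0.29 for Ctsl (0.0253), -0.68 for Tpp1 (0.00139), -0.95 for Dpp7 (2.95e-05) and -0.78 for Grn (6.75e-06). Among the membrane proteins it was -0.73 for Lamp1 (1.14e-06), -0.49 for Mcoln1 (0.0130), -0.41 for Cln3 (0.0167), -0.80 for Ctns (4.57e-05) and -0.83 for Wdr81 (0.00506).

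The V-ATPase subunits Atp6v0d1 and Atp6v1h differed by -0.65 (0.00437) and -0.59 (0.000409), and Flcn and Rragc of TFEB control by -0.63 (0.00272) and -0.74 (0.000753). Ctsa was the only one of the 24 with a called change in the opposite direction at 24 h. The 2 effects use untreated cells of different ages.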

How the results depend on the processing

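Called changes kept their direction in all alternatives but for the negative values given here, and the counts of called genes at 4 to 10 h stayed within 1.5 times of 30, 36, 41 and 35 in all but the fits of only the groups compared. Shares of all tested genes called in the same fit stand in brackets. Those fits called 0 at 2 h (0.0220%), 19 at 4 h (7.79%), 27 at 8 h (11.3%), 13 at 10 h (3.56%), 15 at 24 h (35.9%), 0 between untreated groups (0.0881%), 0 between 0.5 h and 2 h (0.220%), 0 between 8 h and 10 h (0.0147%) and 12 between the 24 h and 10 h effects (3.06%). Library weights, whose estimation stopped before its tolerance was reached, called 3 at 2 h (12.2%), 25 at 24 h (54.8%), 20 between untreated groups (36.9%) and, for successive steps, 5 between 0.5 h and 2 h (17.6%), 33 between 4 h and 6 h (52.0%), 23 between 6 h and 8 h (52.7%) and 20 between 8 h and 10 h (18.8%). With them Ids was -0.18 at 8 h, and between untreated groups Ids and Atp6v1a were both -0.24 and Rragd -0.22. Without the 4 libraries that stand apart 36 (50.6%), 41 (56.1%), 41 (48.3%) and 38 (39.8%) genes were called at 4, 6, 8 and 10 h, 24 at 24 h (51.3%), 15 between untreated groups (30.1%, Rragd at -0.20), 17 between 6 h and 8 h (43.3%) and 14 between 8 h and 10 h (12.02%). The GC and length correction called 2 between 0.5 h and 2 h (2.43%) and 14 between 8 h and 10 h (12.3%), and put Ctsl at -0.0042 at 24 h, also with the block. The replicate block, which pairs same-numbered libraries, called 2 between 0.5 h and 2 h (1.22%; with the correction 2, and 16 between 8 h and 10 h) and moved no other count by over 1.5 times. A pseudocount of 0.1 called 2 between 0.5 h and 2 h (1.21%), and median-of-ratios scaling 0 between untreated groups (0.867%). With 1 library left out, counts were 0 to 4 between untreated groups, 12 to 15 between 4 h and 6 h, 5 to 8 between 6 h and 8 h, 3 to 7 between 8 h and 10 h and 5 to 9 at 24 h. The causes were not tested. Unknown depth limits what can be said of genes below 1 FPKM.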
